A study of Mus musculus with 2 samples.

Results

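The loci described here are Tcrb and Tcrg, which encode the beta and gamma chains of the mouse T cell receptor, and the sites bound by CTCF in and around them in double-negative (DN) thymocytes. The members are the CTCF regions whose centre lay at 40600000 to 41750000 on chromosome 6 or at 19000000 to 19700000 on chromosome 13 (build mm9). There were 57 of them, 35 in the Tcrb window and 22 in the Tcrg window, of 53551 regions in the whole map. A region is a run of touching 25-bp bins that the authors listed as a peak. Within each window a locus body was set apart from its flanks, at 40.84 to 41.51 Mb for Tcrb (670 kb, from the V array to the D, J and C end) and at 19.27 to 19.45 Mb for Tcrg (180 kb). These limits are approximate. The side of lower coordinates is called the low flank and the other side the high flank.

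CTCF was mapped by chromatin immunoprecipitation and sequencing (ChIP-seq) in thymocytes of C57BL/6 mice with the genotype Rag1 -/-, aged 4 to 8 weeks. The labels describe 2 libraries from these cells, 1 made with an antibody against CTCF and 1 of input DNA. Only the CTCF library is used, since the input had 0 processed files in use here. All cells lacked RAG1, and no group with RAG1 is compared with them. Such cells are a model of the germline locus, because receptor genes cannot be cut without RAG1. Thymic development then halts at the DN stage. How many animals were pooled, and of which sex, the labels do not say, and no expression values were at hand to check the CD4-CD8- cell type against its markers. With no replicate and no heights in the file, each site counts as present or absent and its width is the measure of its size. Intervals given below are exact, at the 95% level, and cover counting error only. They take sites as independent, so true errors are larger where sites cluster. Read depth is unknown.

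T cell receptor chains are assembled from V, D and J gene segments by the RAG recombinase, and the beta chain, which has D segments, is assembled at the DN stage. Distant V segments must come close to the D and J segments for this, and the locus is folded into loops. CTCF, a zinc-finger DNA-binding protein, marks many anchors of chromatin loops and many insulators, and is known to bind within antigen receptor loci.

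A gene table of another build (GRCm38) gives the order of genes but not their place on this map. In that table Tcrb begins beside Moxd2 with Trbv1. There follow 6 other genes, 5 of them protein-coding and Prss58, a serine protease gene, among them. The main array, Trbv2 to Trbv30, holds 33 V segments and the pseudogene Gm2719. Next come 11 other genes, 8 of them protein-coding, with the trypsinogen-type genes Try4, Try5, Try10, Prss1 and Prss2 among them. The segments Trbd1, Trbj1-1 to Trbj1-7, Trbc1, Trbd2, Trbj2-1 to Trbj2-7 and Trbc2 follow, and Trbv31 ends the locus near Ephb6, a receptor kinase gene. In all the table lists 35 V segments (13 of them pseudogenes), 2 D segments, 14 J segments and 2 C regions. Tcrg has no D segments. It lists 7 V segments, 4 J segments and 4 C regions in alternating groups, in the order Trgv7, Trgv4, Trgv6, Trgv5, Trgj1, Trgc1, Trgv3, Trgj3, Trgc3, Trgc2, Trgj2, Trgv2, Trgv1, Trgj4 and Trgc4. Among its neighbours in the table are Stard3nl and Amph, which encodes amphiphysin, a protein of endocytosis.

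The Tcrb body held CTCF regions in separate runs with long empty stretches between them. It contained 27 regions, or 40.3 regions per Mb (26.6 to 58.6). Its flanks held 8 regions, or 16.7 per Mb (7.20 to 32.8), and the rest of chromosome 6 held 2965, or 20.4 per Mb (19.7 to 21.2). Body density was 2.42 times that of the flanks (1.07 to 6.16) and 1.97 times that of the rest of the chromosome (1.30 to 2.88). The first ratio was not firm: with pieces within 200 bp joined into 1 region it was 2.06 and its interval reached below 1 (0.889 to 5.33). The ratio to the rest of the chromosome was 1.89 after the same joining (1.19 to 2.84). This interval too takes sites as independent. Without joining, 30 of 217 windows of 670 kb on chromosome 6 held at least as many regions as the body.

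Counts were unequal between the low and the high flank, though the intervals of their densities overlapped. Between 40.6 and 40.84 Mb there was 1 region, 600 bp wide, at 40639121 to 40639720, a density of 4.17 per Mb (0.105 to 23.2). No region was listed over the next 204 kb, up to the first region of the body. Of autosomal gaps, 4.08% were at least as long. The high flank held 7 regions at 29.2 per Mb (11.7 to 60.1), and body density was 1.38 times this value with an interval that included 1 (0.587 to 3.76).

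Along the Tcrb body the regions fell into 3 runs, taking any gap over 100 kb as a break. This break was chosen after the positions were seen, so the runs are a description. The first run was a lone region at 40843321 to 40843995, 3.66 kb inside the low limit. At 675 bp it was the widest region in the whole Tcrb window, and 6.26% of autosomal regions were at least as wide. A gap of 121 kb followed, and 8.02% of autosomal gaps were at least as long. With 26 gaps in the body, breaks of this length were not shown to be more frequent than on the autosomes.

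The central run was the largest. It held 19 regions from 40964971 to 41231370, a span of 266 kb, at a median gap of 8.50 kb. The run holds no gap over 100 kb by its definition, so its median is not comparable with that of a whole chromosome. Over all 26 gaps of the body, the long ones included, the median was also 8.50 kb, beside 16.0 kb on the rest of chromosome 6. In this run 12 of 19 regions were 500 bp or more (63.2%, interval 38.4 to 83.7%, beside 46.8% of autosomal regions), and the median width was 575 bp. Its first region, at 40964971 to 40965445, was 475 bp wide and stood 31.0 kb apart from the next. A pair of 625 and 550 bp at 40996396 to 40998495 lay only 925 bp apart.

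Regions of 625 bp were the commonest kind in the Tcrb body, with 6 of 27, beside 7.64% of autosomal regions. This width was picked because it was the commonest in the body, so an excess over the autosomes is partly built in. The commonest autosomal width was 600 bp (8.74%), and the Tcrg body had 0 of 13 regions at 625 bp. All regions of 625 bp in the Tcrb body lay in the central run. They started at 40996396, 41005421, 41058771, 41062696, 41068021 and 41144296. The 3 that started between 41058771 and 41068021 were separated by 3.30 and 4.70 kb, so that 3 equally wide sites stood within 10 kb of sequence. Toward its high end the central run became narrower, as listed. Its last 4 regions, from 41212721 on, measured 375, 25, 475 and 325 bp, and none reached 500 bp. The 25-bp region, a lone bin, lay 25 bp from the 475-bp region. Joined, these made a site spanning 525 bp, so the absence of regions of 500 bp held only without joining.

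From 41231371 to 41455245 no CTCF region was listed. This stretch of 224 kb was the longest gap inside the body. Of all gaps between neighbouring regions on chromosomes 1 to 19, 3.59% were at least as long. It was bounded by a region of 325 bp on the low side and a region of 550 bp, at 41455246 to 41455795, on the high side. In the gene order, stretches of several genes that are not receptor segments also occur in 2 places in Tcrb, between Trbv1 and Trbv2 and between Trbv30 and Trbd1. Whether the 2 long gaps of the body fall on those genes was not tested, since no genes of build mm9 were used. Whether reads could be mapped uniquely there was not tested either.

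The third run lay at the D, J and C end of the body. Its 7 regions spanned 51.6 kb, from 41455246 to 41506845. Their median width was 300 bp, and 2 of 7 were 500 bp or more (28.6%, interval 3.67 to 71.0%). This interval overlapped that of the central run and included the autosomal 46.8%, so a difference in the share was not detectable with 7 regions. The 2 wide regions stood at the ends of the run, with 550 bp at the low end and 525 bp at the high end. In between lay regions of 375 and 50 bp, 75 bp apart, and 1.80 kb farther on 2 regions of 125 bp, again 75 bp apart. Joined, the first pair spanned 500 bp and the second 325 bp. The low median width and the share of wide regions in this run thus depended on counting the pieces separately. The gap of 1.80 kb was the shortest over 1 kb in the body. A region of 300 bp at 41503121 to 41503420 and the region of 525 bp at 41506321 to 41506845 were 2.90 kb apart. The centre of the region of 525 bp, the last of the body, lay 3.42 kb inside the high limit.

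**Figure D1:**
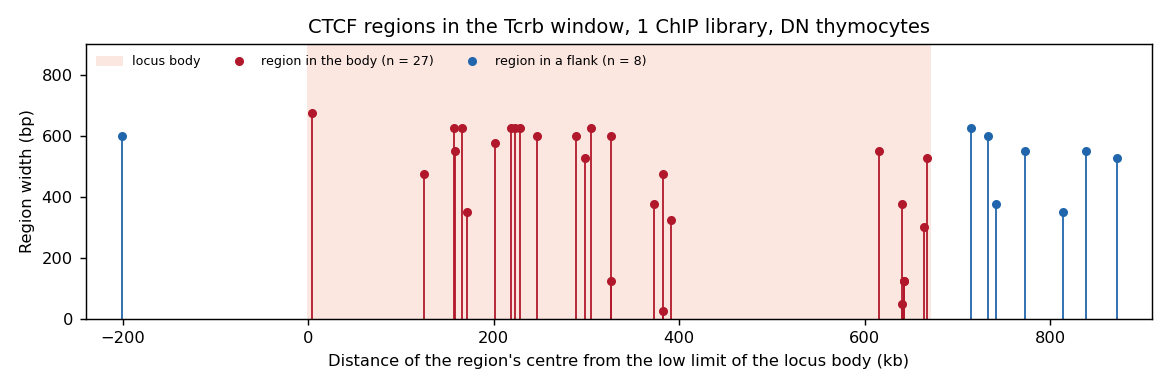
Each stem is a CTCF region of the Tcrb window, placed by the distance of its centre from the low limit of the locus body in kb, with its width in bp as height; regions in the body are red, regions in the flanks blue, and the body is shaded. A lone region of 675 bp, a central run of 19 and a run of 7 at the D, J and C end are separated by gaps of 121 and 224 kb.

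Beyond the high limit of Tcrb a further 47.3 kb were empty, and the 7 regions of the high flank then followed. Their widths were 625, 600, 375, 550, 350, 550 and 525 bp in order of position, from 41554146 to 41712070. The shortest gap among them was 7.75 kb and the longest 40.2 kb, with a median of 27.9 kb. No narrow piece was listed beside any of them, over 6 gaps. The body held 4 pairs of regions within 200 bp of each other, over 26 gaps. On the autosomes, joining within 200 bp took 52254 regions to 46433, so close pairs were common. With 6 gaps, no difference from the body was shown. The widest region of the high flank, with 625 bp, was also the one nearest to the body.

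In 50-kb steps from the low limit of the Tcrb body, counts were 1, 0, 1, 4, 5, 2, 3 and 4 over the first 400 kb. The next 4 steps, from 400 to 600 kb, held none. From 600 to 650 kb there were 5 regions, and the remaining 20 kb held 2. The highest covered length, 3050 bp, was in the step from 200 to 250 kb within the central run. The step from 600 to 650 kb also held 5 regions but only 1225 bp of covered sequence.

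The Tcrg body was denser in CTCF regions than the Tcrb body in this map, though the intervals overlapped. It held 13 regions in 180 kb, or 72.2 per Mb (38.5 to 124). Its flanks held 9 regions, or 17.3 per Mb (7.91 to 32.9), and the rest of chromosome 13 held 2152, or 18.5 per Mb (17.7 to 19.3). Body density was 4.17 times that of the flanks (1.65 to 11.1) and 3.91 times that of the rest of chromosome 13 (2.08 to 6.70). The density of Tcrb was 0.558 times that of Tcrg, body against body, with an interval that included 1 (0.278 to 1.18). Among regions of 500 bp or more, of which the Tcrg body had 3, the ratio to the flanks was 1.44 (0.234 to 6.76) and the ratio to the rest of the chromosome 2.07 (0.426 to 6.07). Of the 13 regions, 10 were under 500 bp, so the excess in number was not shown for wide regions.

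**Figure D2:**
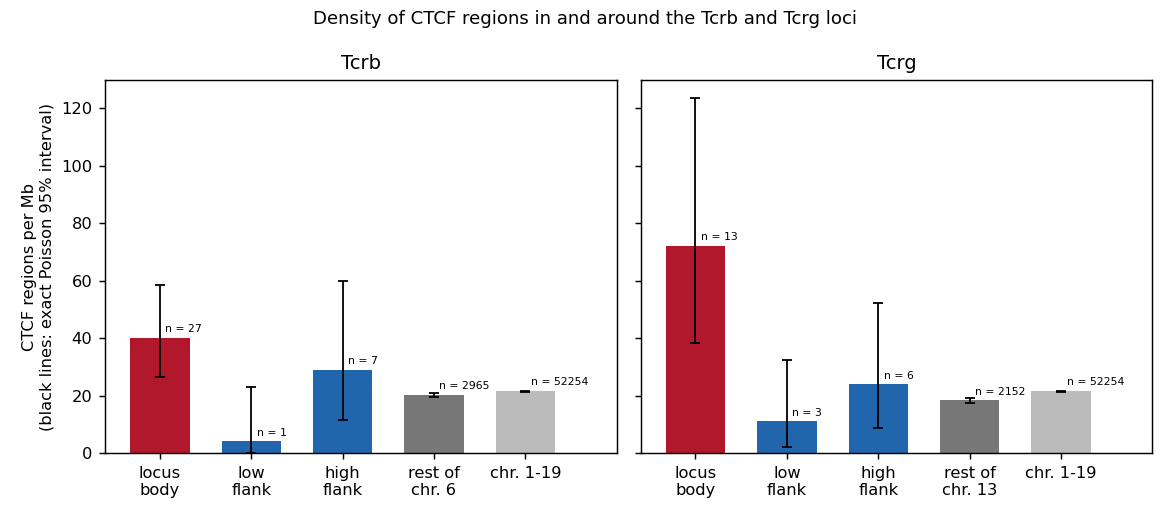
CTCF regions per Mb (bars) with exact Poisson 95% intervals (black lines) in the locus body, the low flank, the high flank, the rest of the same chromosome and chromosomes 1 to 19, for Tcrb on the left and Tcrg on the right. The bodies stand at 40.3 and 72.2 per Mb, and their intervals lie above the rest of the chromosome at 20.4 and 18.5 per Mb.

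Most regions of the Tcrg body were narrow or of middle width. In order of position they measured 200, 75, 100, 600, 425, 400, 325, 550, 575, 100, 350, 300 and 50 bp. The first, at 19300521 to 19300720, lay 30.6 kb inside the low limit, and the last, at 19448596 to 19448645, lay 1.38 kb inside the high limit. The widest, 600 bp at 19328096 to 19328695, was followed 5.75 kb on by a region of 425 bp at 19334446 to 19334870. A region of 400 bp stood at 19347171 to 19347570. The only other regions of 500 bp or more, 550 bp at 19374971 to 19375520 and 575 bp at 19377296 to 19377870, formed a pair 1.78 kb apart. This was the shortest gap over 1 kb in the body.

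The Tcrg body had no break like those of Tcrb. It had only 12 gaps, and 8.02% of autosomal gaps were at least as long as the 121-kb break of Tcrb. The absence of a break is therefore not shown to be a difference between the loci. The median gap was 10.4 kb, against 19.3 kb on the rest of chromosome 13. The longest gap was 32.2 kb, from the region of 350 bp at 19384821 to 19385170 to the region of 300 bp at 19417396 to 19417695. Gaps of that length were common, and 30.7% of autosomal gaps were at least as long. Counts in 50-kb steps from the low limit were 3, 4 and 5, with 1 region in the remaining 30 kb.

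The region nearest to each limit of the Tcrg body from outside was wide, with 575 bp on the low side and 550 bp on the high side. The low flank held 3 regions, of 600, 600 and 575 bp, between 19225596 and 19269920. The centre of the last was 367.5 bp below the limit, so its place in the flank depends on where the approximate limit is drawn. Gaps among them were 24.1 and 18.5 kb. On the high side 5 regions were packed into 3825 bp, from 19454121 to 19457945, and the nearest centre was 4.39 kb above the limit. They measured 550, 650, 150, 150 and 625 bp. The region of 650 bp, at 19456221 to 19456870, was the widest in the Tcrg window, and 10.4% of autosomal regions were at least as wide. Across chromosomes 1 to 19, 0.349% of all sets of 5 consecutive regions lay within as short a span. The shortest such span in the Tcrb window was 23525 bp, which 7.50% of autosomal sets matched. This measure was chosen after the cluster was seen. After joining across 1000 bp, 4 of the 5 regions became 1 site of 1725 bp.

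**Figure D3:**
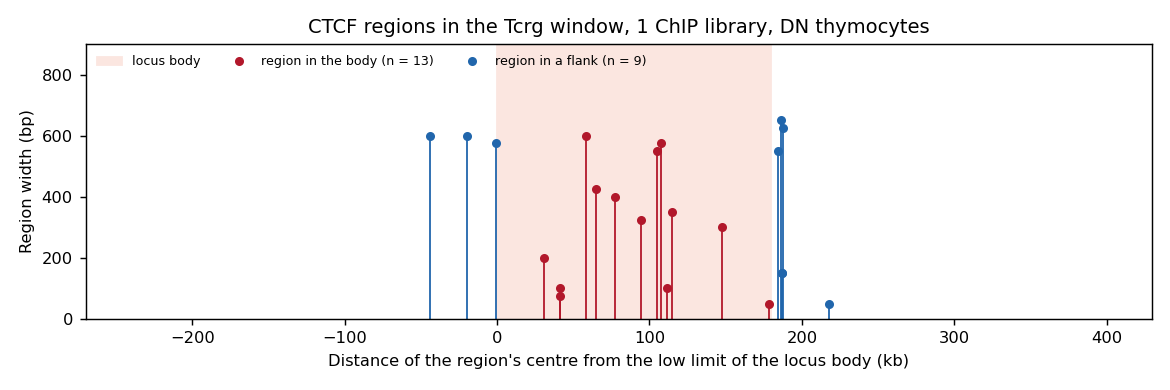
Each stem is a CTCF region of the Tcrg window, placed by the distance of its centre from the low limit of the locus body in kb, with its width in bp as height; regions in the body are red, regions in the flanks blue, and the body is shaded. The nearest regions outside the low and the high limit are 575 and 550 bp wide, and the outer part of each flank is empty.

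With these neighbours, the 22 regions of the Tcrg window formed an island 262 kb long. No region was listed for 295 kb below it, from 18930571 to 19225595, or for 224 kb above it, from 19487546 to 19711370. Of autosomal gaps, 2.48% and 3.59% were at least as long. The island's high end was a region of 50 bp at 19487496 to 19487545, 29.6 kb beyond the cluster. Moving both limits of the body outward by 20 kb took in the cluster and 2 of the 3 regions on the low side. The body then held 20 regions, and its ratio to the flanks was 21.8 (5.30 to 193). The Tcrb window was not bounded in this way, since the nearest regions outside its members were 70.7 kb below and 64.7 kb above. On the low side this depends on where the window was set, since a gap of 204 kb beside the Tcrb body fell inside it. A share of 4.08% of autosomal gaps were at least as long as that gap.

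Against windows of equal length over all autosomes, both counts were high but not rare, at 17.3% and 5.56% of windows. The windows were laid end to end on chromosomes 1 to 19, 3577 of them at 670 kb. Their median count was 11 regions (quartiles 4 and 22), and 17.3% held at least the 27 regions of the Tcrb body. On chromosome 6 alone, 30 of 217 windows did. Counting only regions of 500 bp or more, of which the Tcrb body had 15, 14.0% of windows had as many. At 180 kb there were 13362 windows, with a median of 2 regions, and 5.56% held at least the 13 of the Tcrg body. On chromosome 13 this was the case for 8 of 650 windows, a smaller share than over all autosomes. For the 3 regions of 500 bp or more in Tcrg the share was 29.1%. The windows include those that overlap the loci.

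**Figure D4:**
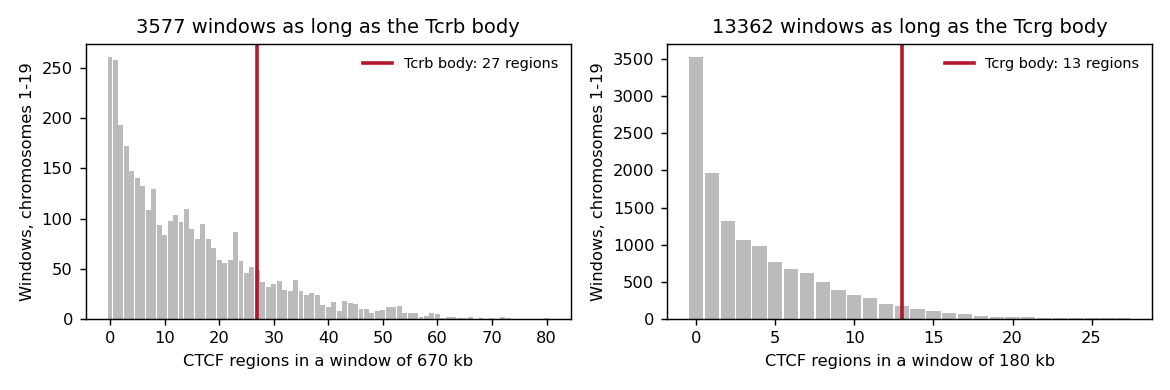
Number of windows on chromosomes 1 to 19 (vertical axis) by the number of CTCF regions they hold (horizontal axis), for windows of 670 kb on the left and 180 kb on the right, with the count of the locus body as a red line. The Tcrb body, with 27 regions, and the Tcrg body, with 13, lie in the upper part of both distributions, at 17.3% and 5.56% of windows with at least as many.

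As listed, wide regions made up a larger share of the Tcrb body than of the Tcrg body. The intervals were wide and overlapped, so a difference between the loci was not shown. In the Tcrb body 55.6% of regions were at least 500 bp wide (15 of 27, interval 35.3 to 74.5%), and in the Tcrg body 23.1% were (3 of 13, 5.04 to 53.8%). Over chromosomes 1 to 19 the share was 46.8%, which lay within both intervals, so neither share was distinguishable from the autosomes at these counts. After joining within 200 bp the shares were 73.9% in Tcrb (51.6 to 89.8%), 25% in Tcrg (5.49 to 57.2%) and 53.8% on the autosomes, with the autosomal value again within both intervals. Median widths were 525 bp in the Tcrb body, 325 bp in the Tcrg body and 425 bp on the autosomes. Regions of 100 bp or less numbered 2 of 27 in Tcrb (7.41%, interval 0.910 to 24.3%) and 4 of 13 in Tcrg (30.8%, 9.09 to 61.4%), beside 22.4% of autosomal regions. No region above 700 bp was listed in either window (0 of 57), beside 3.40% of autosomal regions. An approximate upper limit, taken as 3 counts in 57 and not an exact interval, was 5.26%.

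**Figure D5:**
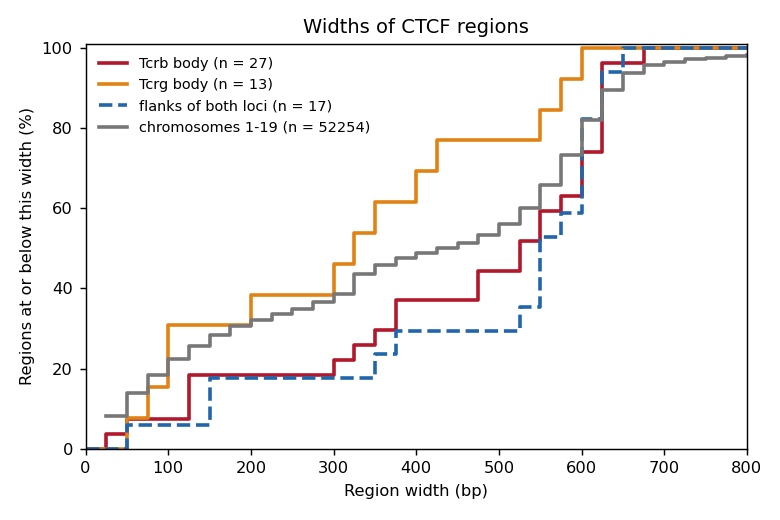
Cumulative share of regions (vertical axis, percent) at or below each width in bp (horizontal axis) for the Tcrb body, the Tcrg body, the flanks of both loci together and chromosomes 1 to 19. The Tcrg curve lies highest above 325 bp, with 3 of 13 regions at 500 bp or more, and the Tcrb curve reaches 675 bp with 15 of 27 at 500 bp or more.

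In the flanks 6 of 8 regions were 500 bp or more around Tcrb (75.0%, interval 34.9 to 96.8%) and 6 of 9 around Tcrg (66.7%, 29.9 to 92.5%). Both intervals included the autosomal 46.8% and overlapped those of the bodies, so no difference in the share was detectable at these counts. Covered length, the sum of the widths of the regions, gave the same order as density for body against flanks. The Tcrb body had 18.0 covered bp per kb, against 8.70 in its flanks and 7.77 on the rest of chromosome 6. The Tcrg body had 22.5 covered bp per kb, against 7.60 in its flanks and 6.79 on the rest of chromosome 13. The autosomal value was 8.37 bp per kb. By this measure the bodies were closer to each other than by number, with Tcrb at 0.801 of Tcrg.

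Some listed regions may be pieces of the same site. Joining regions up to 200 bp apart left 23 in the Tcrb body and 12 in the Tcrg body, and joining across 1000 bp left 22 and 12. In Tcrb the joined sites were the pair of 625 and 550 bp, 2 sites in the central run with a small piece beside a larger one, and 2 in the run at the D, J and C end. In Tcrg the pieces of 75 and 100 bp at 19311296 to 19311495 were joined across 25 bp.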

How the data were processed

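CTCF-bound DNA from thymocytes fixed with 1% formaldehyde for 10 minutes was sequenced, per the labels' protocols. The deposited file lists the positions of 25-bp bins, with no score, height or other value. Bowtie was used and the build was mm9, per the submitters' processing notes. The peak caller, its threshold and the use of the input were not given in the sources used. Sites under the threshold cannot be seen, so a stretch with none listed may still hold weak binding.

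Touching bins were joined into regions, placed by their centre and given in 1-based coordinates. Densities have exact Poisson intervals, shares exact Clopper-Pearson intervals, and ratios of densities an interval converted from the exact binomial limits on the body's share of both counts (95%). Chromosome spans ran from the first to the last region, and windows lay within them. No p-values are given for 1 library. The code was tested on simulated data. Alternatives were joining (200 and 1000 bp), limits moved by 20 kb, stricter width minimums, any overlap in place of the centre, and shifted windows. The members, limits and lists were chosen with earlier results of these data known. Named regions were those at the limits, the 5 widest (with ties), and those that bound the longest gap and the shortest gap over 1 kb in each body, and the widest region and longest gap of each flank. Others, such as the runs and the cluster beside Tcrg, were named after their values were seen. Gene order came from a RefSeq table of GRCm38, and no coordinates were taken from it. The tools were Python 3.11.15, with scipy 1.17.1, numpy 2.4.6 and matplotlib 3.10.9.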

Additional observations from a re-analysis of the deposited data

How the results depend on the processing

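For 14 results 88 alternative values were computed. Of these, 77 kept to the reported interval or, where there was none, to 1.5 times the reported value, and 11 moved further. None turned a ratio to the other side of 1. With regions of 500 bp or more alone, density fell by construction to 22.4 regions per Mb in the Tcrb body and 16.7 in the Tcrg body. In Tcrg this setting also gave ratios of 1.44 to the flanks and 2.07 to the rest of the chromosome, 9.58 covered bp per kb, and 29.2% of equal windows with at least as many regions (29.1% over the windows of the report, since here the spans ran between regions of 500 bp or more). That percentage, 5.56 as reported, was 3.20 after joining across 1000 bp, 2.01 with the limits 20 kb outward, 3.41 with the limits 20 kb inward and 8.39 for regions wider than 100 bp. With the limits outward the Tcrg ratio to the flanks was 21.8. The interval of the Tcrb ratio to the flanks included 1 under 6 of 7 alternatives, the exception being any overlap in place of the centre. Beyond fewer or longer regions and the shifted limits themselves, the cause was not tested. No paired analysis was possible because the CTCF library alone gave values. The number of weaker sites that the threshold left out is unknown, as is the depth.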
